A study of Mus musculus with 12 samples.

Results

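The T cell receptor complex and the first kinases and adaptors below it were followed by RNA-seq through 9 genes: Cd3d, Cd3e, Cd3g, Cd247, Lck, Fyn, Zap70, Lat and Lcp2. They were chosen by name for their place in the pathway, and all 9 were found among the 55414 gene records of the count table and passed the filter on low counts in every comparison. The RNA came from CD4+ T cells that were taken from the spleens of male BALB/c mice aged 18 weeks by removing the other cell types. Mice of the LIP group carried silk ligatures around their maxillary molars to induce experimental periodontitis, and mice of the CTL group were anaesthetised without a ligature. The cells were sequenced directly (day 0) or after culture with IL-2, plate-bound anti-TCRβ and anti-CD28 (day 2). Each of the 4 groups (each treatment on each day) had 3 libraries, which are named here by group and the number in their title, such as CTL 88. For some day 2 libraries the treatment label writes CD29 or CD30 in place of CD28. The comparisons ask how periodontitis and stimulation through the receptor change the RNA of these cells.

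The receptor that recognises peptide on MHC molecules cannot signal by itself. It is carried by the CD3 chains δ, ε and γ (Cd3d, Cd3e, Cd3g) and by the ζ chain (Cd247), whose tails hold the tyrosine motifs that are phosphorylated when the receptor is engaged. Lck, a Src family kinase held by the CD4 coreceptor, and its relative Fyn phosphorylate these motifs, and ZAP-70 (Zap70) docks on them. ZAP-70 in turn phosphorylates the membrane adaptor LAT (Lat) and the cytosolic adaptor SLP-76 (Lcp2), on which calcium, Ras and NF-κB signalling are assembled. Stimulated T cells are known to take receptors from their surface and to replace them while they grow and divide.

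Total expected counts were between 6249094 and 7845715 in the day 0 libraries and between 8691745 and 12866751 in the day 2 libraries. LIP 90 of day 2 stood apart from LIP 96 and LIP 97 of its group, with a chi-square per gene of 43.6 and 34.8, against 2.82 to 11.9 for the other pairs of replicates. The summed level of 7 CD4 T cell markers lay between 2588 and 3474 CPM (counts scaled to a common library total) in all 12 libraries. This sum hid opposite changes. In CTL mice the mean of Il7r fell from 898.0 CPM on day 0 to 97.1 CPM on day 2. Those of Cd5 and Cd28 rose from 238.3 to 937.7 CPM and from 416.4 to 935.9 CPM. Of the 7, 2 rose, 1 fell and 4 did not pass in CTL mice (edgeR), against 3, 1 and 3 in LIP mice. The list also holds Cd3e, a pathway gene followed here, so the sum is no independent measure of CD4 T cell content. The summed level of 8 B cell markers was 105 to 139 CPM on day 0, of which Ighm, the μ heavy chain, made up the most. On day 2 it was 22.1, 23.7 and 64.1 CPM in CTL 92, 93 and 97 and 23.2, 72.7 and 71.1 CPM in LIP 90, 96 and 97. The 10 myeloid markers summed to 6.21 to 16.03 CPM in the other groups and to 22.03, 21.8 and 52.5 CPM in LIP 90, 96 and 97 of day 2, with S100a8 and S100a9 at 0 in every library. Mpeg1 made up most of the sum in LIP mice on day 2 (mean 27.8 CPM), whereas Cd68 was at 2.25 CPM there and 3.32 CPM in CTL mice, and the means of the other 8 were 1.09 CPM or less. The 8 NK and CD8 T cell markers summed to 67.2 to 84.2 CPM on day 0 and 12.8 to 31.8 CPM on day 2. Prf1 was the largest part on day 0, and its mean went from 45.9 to 3.68 CPM in CTL mice and from 28.9 to 4.04 CPM in LIP mice. The CD8 chain Cd8b1 went from 5.10 to 4.85 CPM in CTL mice and from 5.21 to 8.17 CPM in LIP mice, and passed in neither (edgeR). Group means of Cd8a were 0.938 CPM or less. Erythroid markers summed to 3.16 CPM or less and pancreatic acinar markers to 16.5 CPM or less. The part of these cells in the results below was not tested. Fewer cells of a type and less RNA per cell cannot be told apart in such bulk samples.

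The genes that B and myeloid cells use in the place of these 9 were low. Syk, Fcer1g, Lat2, Blnk, Clnk, Lyn, Fgr and Blk together reached 1.16 CPM at the lowest and 14.9 CPM at the highest, in LIP 90 and LIP 96 of day 2. Syk, the relative of ZAP-70, had the highest mean of them, 4.40 CPM in LIP mice on day 2, with 0.537 CPM in the lowest library and 7.49 CPM in the highest. The 9 genes of the T cell pathway had group means between 115.0 CPM (Zap70, LIP day 0) and 727.9 CPM (Lcp2, CTL day 2).

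The 9 genes lie on 6 chromosomes of GRCm39 (GENCODE M39 annotation). Cd3g (chr9:44880870-44891735, minus strand), Cd3d (chr9:44893083-44899173, plus strand) and Cd3e (chr9:44910037-44920925, minus strand) form a cluster of 40056 bases in which Cd3g and Cd3d start 1348 bases apart and run in opposite directions. Cd247 (chr1:165616250-165704846, plus strand) shares its region with Pou2f1 on the other strand. Zap70 lies at chr1:36800837-36821905, Lck at chr4:129442137-129467434, Fyn at chr10:39244851-39442227, Lat at chr7:125962996-125968810 and Lcp2 at chr11:33996920-34042426. The library kit was directional, but the strand setting of the counting was not stated, so reads of Cd247 and of the genes that overlap it cannot be told apart with certainty.

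Levels were compared between genes only per length, as CPM divided by the summed length of all annotated exons in kb. On day 0, Lck and Cd3e were the highest of the 9 in both groups. In CTL mice, Lck had 151.0 ± 15.2 CPM per kb (SD, n = 3) and Cd3e 118.8 ± 8.27, followed by Lat with 77.2 ± 3.85. Lcp2 (67.5 ± 5.37), Cd3g (65.4 ± 3.02) and Cd3d (65.1 ± 10.6 CPM per kb) came next and overlapped in their libraries. Cd247 (35.6 ± 2.503) and Zap70 (32.5 ± 1.27 CPM per kb) overlapped as well, and Fyn was the lowest with 24.3 ± 2.46 CPM per kb. In LIP mice the order on day 0 was the same apart from the overlapping places of Lcp2 and Cd3g.

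By day 2 the order had moved. In CTL mice Lcp2 led with 158.4 ± 6.82 CPM per kb, and its libraries overlapped with those of Lck (146.7 ± 6.66), Lck with Cd3e (135.7 ± 14.8) and Cd3e with Cd3d (122.0 ± 12.6). Zap70, at 67.7 ± 4.13 CPM per kb, stood above Cd247 (33.5 ± 0.725) with no overlap. In LIP mice Lck (160.6 ± 2.20), Lcp2 (153.8 ± 13.3) and Cd3d (150.1 ± 36.0 CPM per kb) were at the top with overlapping libraries, and those of Cd3d overlapped with Cd3e (117.4 ± 1.53 CPM per kb). Fyn stayed the lowest in both groups (22.2 ± 2.03 and 21.2 ± 2.35 CPM per kb). The place of some genes rests on the length used. With the median transcript length in place of all exons, Lck and Cd3e were again the highest pair on day 0, but Lcp2 was 7th and Zap70 was the lowest. On day 2 that length put Lcp2 4th in both groups, with Cd3e first in CTL mice and Cd3d first in LIP mice.

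**Figure D1:**
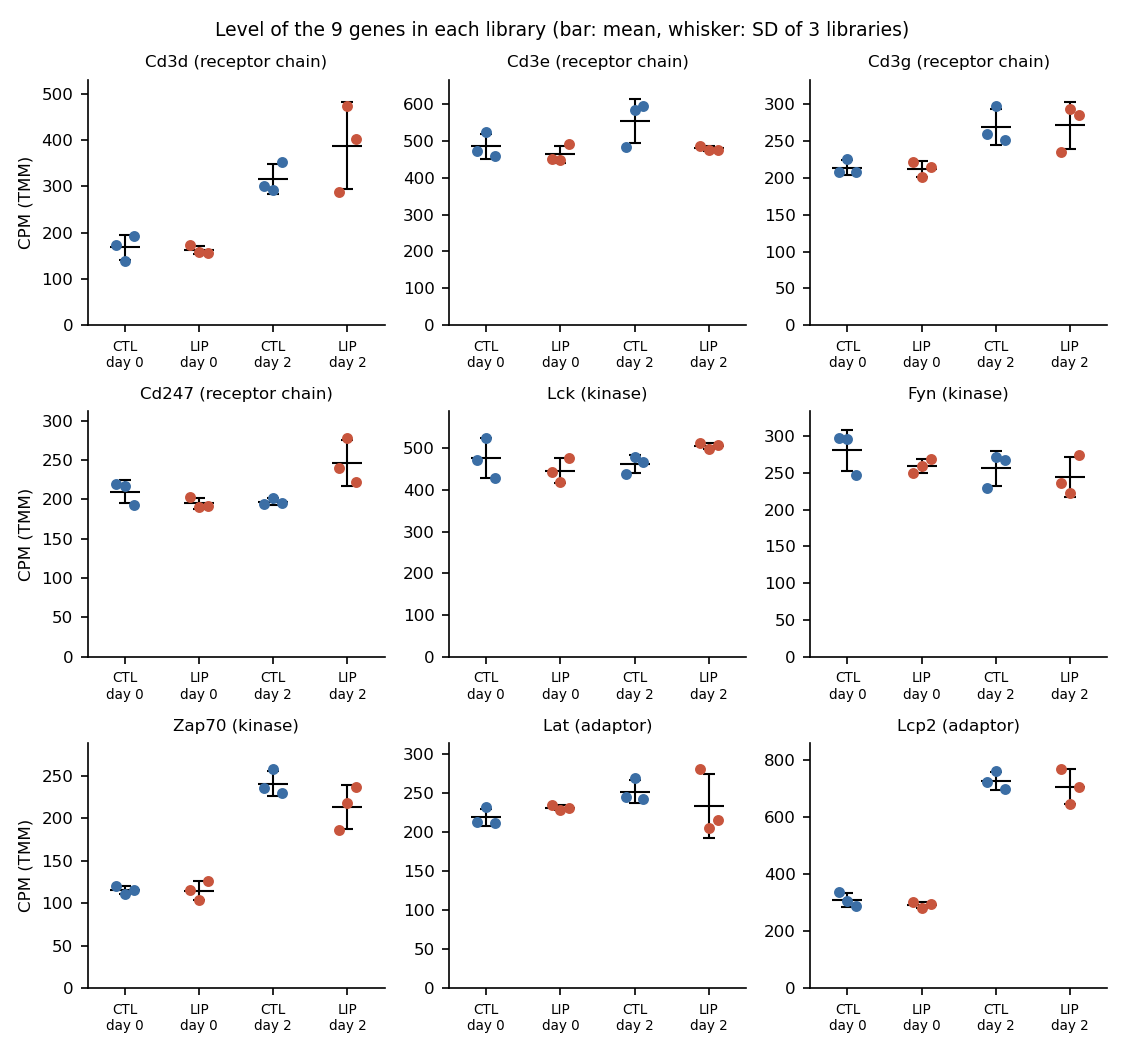
Level of each of the 9 genes in every library, in TMM-normalized CPM (y axis, from 0), by group (x axis; blue CTL, red LIP, 3 libraries each). Bars mark the mean and whiskers the SD. Cd3d, Zap70 and Lcp2 were higher in every day 2 library than in every day 0 library, while the groups of Fyn overlap on both days.

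The comparison of day 2 with day 0 asks what stimulation and culture did to the RNA of the pathway, and was tested in CTL and in LIP mice separately (edgeR's quasi-likelihood test on 12 libraries, Benjamini-Hochberg adjustment over 15475 genes). Lcp2, Zap70 and Cd3d rose in both groups, with fitted changes between 1.86-fold and 2.42-fold. Cd3g rose by a smaller amount in both groups. Cd247 rose in LIP mice and did not pass the test in CTL mice. The other 4 genes, Cd3e, Lck, Fyn and Lat, did not pass the test in either group, and none of the 9 fell. Thus 4 of 9 genes passed in CTL mice, where 69.0% of all genes tested passed (35.3% higher), and 5 of 9 in LIP mice, where 71.8% passed (36.6% higher). The median absolute log2 fold change of the 9 genes was 0.20 in CTL mice and 0.34 in LIP mice, against 0.81 and 0.90 over all genes tested. The days did not overlap for 5 of 9 genes in CTL mice (73.3% of all genes) and 6 of 9 in LIP mice (74.8%).

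Of the receptor chains, Cd3d changed the most. It had 173.7, 138.8 and 193.0 CPM in CTL 88, 89 and 94 of day 0, and 301.9, 292.2 and 353.0 CPM in CTL 92, 93 and 97 of day 2. The values in LIP mice were 172.9, 158.3 and 156.1 CPM in LIP 92, 93 and 94 of day 0, and 288.7, 473.3 and 403.4 CPM in LIP 90, 96 and 97 of day 2. The days did not overlap in either group, and LIP 90 was the lowest of the 6 day 2 libraries. The log2 fold change was 0.91 in CTL mice (SE 0.16, edgeR adjusted p = 0.000242) and 1.26 in LIP mice (SE 0.17, edgeR adjusted p = 1.30e-05). These amount to 1.87-fold and 2.39-fold.

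Cd3g, the other chain that pairs with CD3ε in the complex, had 208.8, 225.6 and 208.1 CPM in CTL mice on day 0 and 259.7, 297.4 and 251.5 CPM on day 2. In LIP mice it had 222.1, 201.2 and 214.4 CPM on day 0 and 235.3, 294.2 and 285.4 CPM on day 2, with the lowest day 2 value again in LIP 90. Its days were apart in both groups, by a narrow gap. The log2 fold change was 0.33 (SE 0.10, edgeR adjusted p = 0.0119) in CTL mice and 0.35 (SE 0.10, edgeR adjusted p = 0.00790) in LIP mice. Without CTL 93 of day 2 the adjusted p in CTL mice was 0.0535 (edgeR).

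Cd3e, which is shared by both CD3 pairs, moved little. It had 473.4, 523.0 and 458.5 CPM in CTL mice on day 0 and 484.1, 583.9 and 593.3 CPM on day 2, and the days overlapped. Its values in LIP mice were 450.4, 448.3 and 490.6 CPM on day 0, and 486.5, 475.8 and 475.6 CPM on day 2. The log2 fold changes were 0.19 in CTL mice (95% interval -0.02 to 0.40) and 0.05 in LIP mice (-0.16 to 0.26). Leaving out CTL 92 of day 2, the lowest of its group, brought the change in CTL mice past the threshold (edgeR adjusted p = 0.0201). The ratio of Cd3d to Cd3e within a library, per length, was 0.554 ± 0.125 in CTL mice and 0.555 ± 0.0519 in LIP mice on day 0, and 0.904 ± 0.102 and 1.28 ± 0.320 on day 2 (SD, n = 3). Every day 2 library exceeded every day 0 library in this ratio.

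Cd247 was the only one of the 9 genes whose day effect passed the test in 1 group and not in the other. It had 219.1, 217.1 and 192.6 CPM in CTL mice on day 0 and 193.9, 202.0 and 195.4 CPM on day 2, with overlapping days. In LIP mice it had 202.7, 189.9 and 192.1 CPM on day 0 and 239.8, 278.3 and 221.5 CPM on day 2, and there the days did not overlap. The log2 fold change was -0.09 in CTL mice (95% interval -0.30 to 0.12) and 0.34 in LIP mice (SE 0.10, edgeR adjusted p = 0.00666). The difference between these effects was 0.43 (SE 0.14, 95% interval 0.13 to 0.72). It did not pass the adjusted threshold (edgeR adjusted p = 0.153, unadjusted p = 0.00801), and the effect of day is not shown to differ between the groups. With DESeq2 the adjusted p of the difference was 0.0469, without LIP 90 of day 2 it was 0.0497 with edgeR, and over the alternatives of this result it ran from 0.0469 to 0.318.

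Among the kinases, Zap70 rose and the Src family members did not pass the test. Zap70 had 120.4, 111.4 and 115.8 CPM in CTL mice on day 0 and 235.1, 257.7 and 230.1 CPM on day 2. In LIP mice it had 115.3, 103.4 and 126.1 CPM on day 0 and 186.0, 217.5 and 237.0 CPM on day 2, again with LIP 90 as the lowest. All 6 day 2 libraries were above all 6 day 0 libraries. The log2 fold change was 1.06 in CTL mice (SE 0.11, edgeR adjusted p = 1.38e-06) and 0.89 in LIP mice (SE 0.11, edgeR adjusted p = 6.01e-06). 

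Lck had 472.2, 524.6 and 429.4 CPM in CTL mice on day 0 and 438.5, 479.1 and 467.7 CPM on day 2. LIP mice had 443.8, 417.9 and 476.1 CPM on day 0 and 511.0, 497.7 and 507.7 CPM on day 2, where the days did not overlap. The log2 fold changes were -0.04 in CTL mice (95% interval -0.25 to 0.16) and 0.18 in LIP mice (-0.02 to 0.38), and neither passed the test. Fyn lay between 222.6 and 297.7 CPM in all 12 libraries, with log2 fold changes of -0.13 (95% interval -0.37 to 0.11) in CTL mice and -0.09 (-0.32 to 0.15) in LIP mice. The ratio of Zap70 to Lck, per length, was 0.217 ± 0.0263 in CTL mice and 0.228 ± 0.00794 in LIP mice on day 0, and 0.461 ± 0.0231 and 0.374 ± 0.0467 on day 2 (SD, n = 3). The ratio of Lck to Fyn, per length, was 6.23 ± 0.361 in CTL mice on day 0 and 7.65 ± 0.760 in LIP mice on day 2, with the other groups between them.

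The adaptors also split. Lcp2 had 336.8, 306.3 and 287.9 CPM in CTL mice on day 0 and 723.3, 761.2 and 699.1 CPM on day 2. For LIP mice the values were 302.3, 279.9 and 295.2 CPM on day 0 and 767.9, 645.5 and 707.4 CPM on day 2. The log2 fold change was 1.23 in CTL mice (SE 0.10, edgeR adjusted p = 1.13e-07) and 1.27 in LIP mice (SE 0.10, edgeR adjusted p = 7.55e-08). Lat had 213.1, 231.4 and 211.9 CPM in CTL mice on day 0 and 244.2, 268.6 and 241.6 CPM on day 2. In LIP mice it had 234.2, 228.2 and 230.2 CPM on day 0, and 280.0, 204.8 and 215.3 CPM in LIP 90, 96 and 97 of day 2, so that LIP 90 lay above and the other two below the day 0 libraries. The log2 fold changes of Lat were 0.20 in CTL mice (95% interval -0.04 to 0.44) and 0.02 in LIP mice (-0.22 to 0.26). Leaving out LIP 90 of day 2 brought the change in CTL mice past the threshold (edgeR adjusted p = 0.0234). The ratio of Lcp2 to Lat, per length, was 0.876 ± 0.0860 and 0.781 ± 0.0216 on day 0 in CTL and LIP mice, and 1.79 ± 0.0393 and 1.89 ± 0.174 on day 2 (SD, n = 3).

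**Figure D2:**
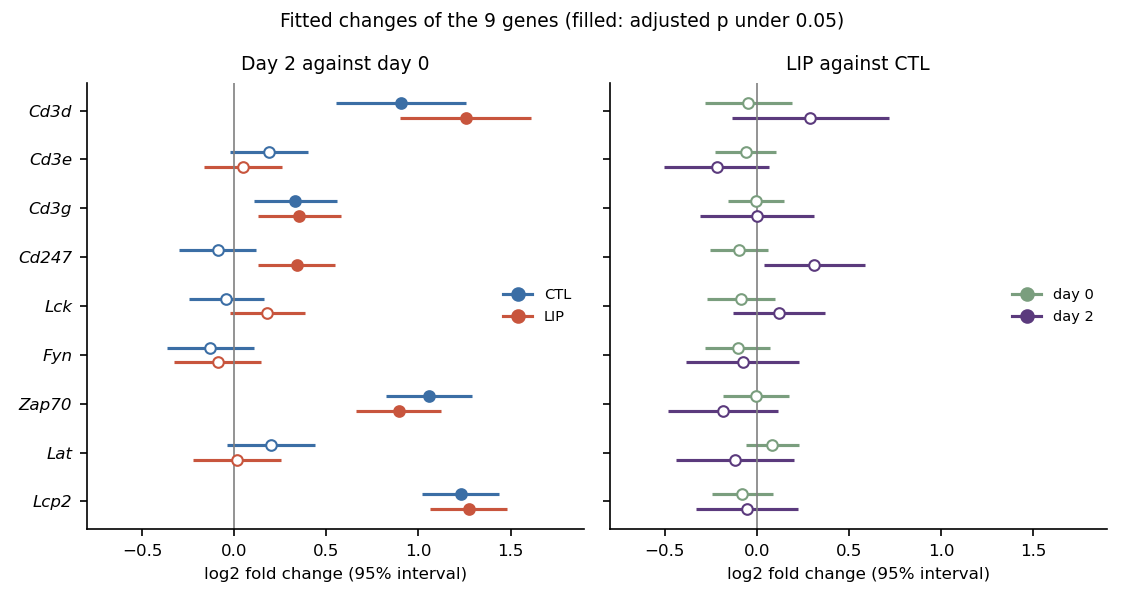
Fitted log2 fold changes (x axis) of the 9 genes with 95% intervals; filled points passed an adjusted p of 0.05. Left, day 2 against day 0 in CTL (blue) and LIP mice (red), where Lcp2, Zap70 and Cd3d lie near 1; right, LIP against CTL on day 0 (green) and day 2 (purple), where no gene passed.

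**Figure D3:**
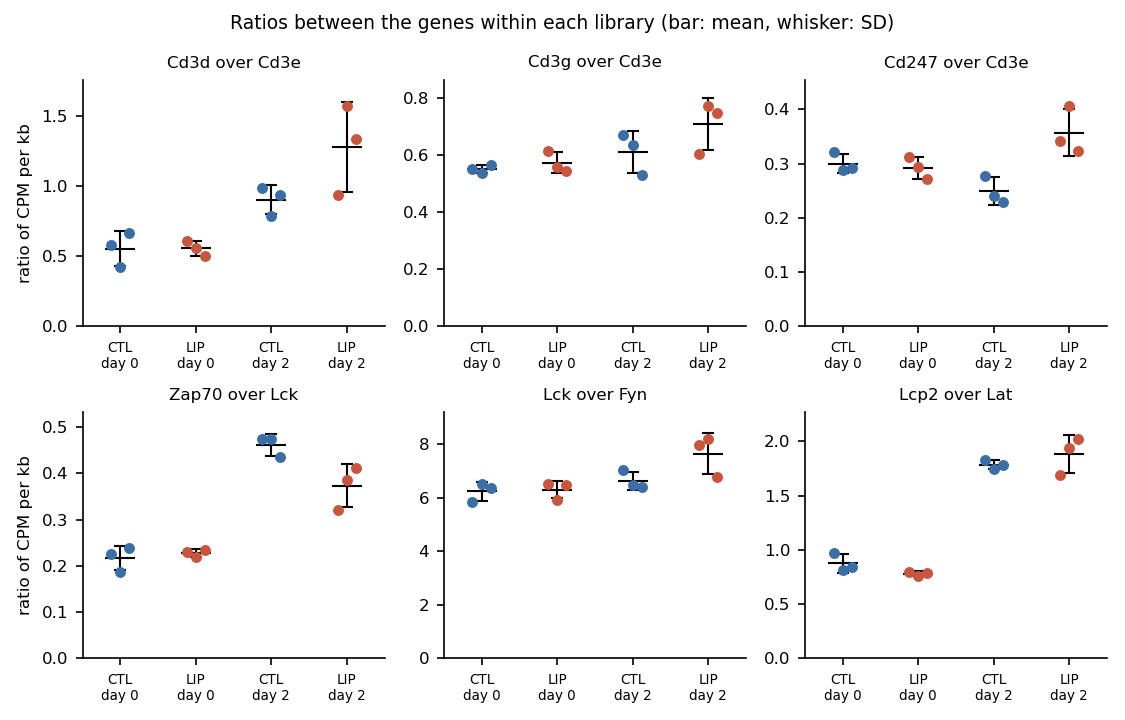
Ratios between pairs of the 9 genes within each library (y axis, CPM per kb of exon over CPM per kb, from 0) by group (x axis; bars mean, whiskers SD, n = 3). Cd3d over Cd3e, Zap70 over Lck and Lcp2 over Lat were higher in every day 2 library than in every day 0 library.

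These changes are relative to the bulk of all genes, and the scaling sets that zero. With upper-quartile scaling the median of all genes moved by -0.29 in CTL mice and -0.32 in LIP mice (log2), and with library size alone by -0.19 and -0.36, while RLE scaling moved it by less than 0.02. The share of higher genes among all those that passed fell from 51.1% to 38.4% and 42.4% in CTL mice, and from 51.0% to 37.7% and 36.2% in LIP mice. Cd3d, Zap70 and Lcp2 passed as higher under each of the 7 alternatives and in each of the 12 fits that left out a library. The rises of Cd3g and Cd247 did not pass under upper-quartile scaling or library size alone. Under these same scalings Cd247, Lck and Fyn passed as lower in CTL mice, and Cd3e, Lat and Fyn passed as lower in LIP mice. Cd3d, Zap70 and Lcp2 stood above the other 6 genes under each of these scalings, whereas which of the 6 passed, and in which direction, depended on the scaling. Relative to the shifted median of all genes the values hardly moved. In LIP mice Cd3e was at 0.05, Lat at 0.01 and Cd247 at 0.34 on the log2 scale under both scalings, next to 0.05, 0.02 and 0.34 with TMM.

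**Figure D4:**
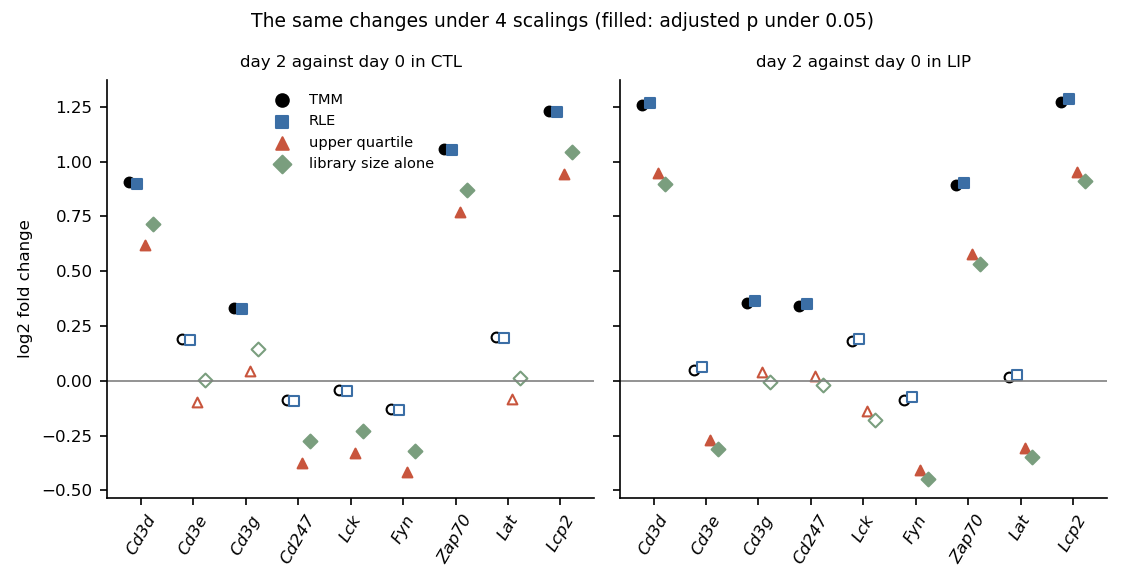
Log2 fold change of day 2 against day 0 (y axis) for the 9 genes under TMM, RLE, upper-quartile scaling and library size alone, in CTL mice (left) and LIP mice (right); filled symbols passed an adjusted p of 0.05. Cd3d, Zap70 and Lcp2 stay above 0.5 in each panel, and under the last 2 scalings the other 6 genes move towards 0 or below it.

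The sequences before the start sites of the genes that rose under every scaling are shown next to that of Lck, which did not pass as higher, so that their base composition and motifs can be compared. Each run holds the 250 bases before the start of the canonical transcript (GENCODE M39, GRCm39), 5′ to 3′ on the strand of the gene. They span chr9:44892833-44893082 for Cd3d, chr1:36800587-36800836 for Zap70, chr11:33996670-33996919 for Lcp2 and chr4:129467435-129467684 for Lck, where Cd3d, Zap70 and Lcp2 are on the plus strand and Lck is on the minus strand. Capitals mark matches, on either strand, to the 8 motifs searched. For the ETS family of factors the letters were CCGGAAG. A variant for the same family had the letters CAGGAAG. The RUNX factors were sought by TGTGGTT. The NFAT factors of calcium signalling were sought by GGAAAA. The AP-1 dimers were sought by TGANTCA, where N is any base. The cyclic AMP response element (CRE) has the letters TGACGTCA. The TATA box was sought by TATAAA. The SP1 factor of many promoters was sought by GGGCGG.
Cd3d: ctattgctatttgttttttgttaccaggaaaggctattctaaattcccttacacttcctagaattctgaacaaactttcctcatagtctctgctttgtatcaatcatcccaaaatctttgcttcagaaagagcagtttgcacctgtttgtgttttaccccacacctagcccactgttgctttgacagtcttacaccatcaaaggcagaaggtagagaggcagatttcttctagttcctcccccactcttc
Zap70: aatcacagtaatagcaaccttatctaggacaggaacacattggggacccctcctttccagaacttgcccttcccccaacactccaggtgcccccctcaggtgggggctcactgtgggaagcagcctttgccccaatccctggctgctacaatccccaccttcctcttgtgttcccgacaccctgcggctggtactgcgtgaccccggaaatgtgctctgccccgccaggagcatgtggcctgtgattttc
Lcp2: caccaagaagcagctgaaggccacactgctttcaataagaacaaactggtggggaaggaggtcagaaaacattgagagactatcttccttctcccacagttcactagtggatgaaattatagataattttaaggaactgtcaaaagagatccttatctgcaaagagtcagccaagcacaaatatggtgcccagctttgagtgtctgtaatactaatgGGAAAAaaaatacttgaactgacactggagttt
Lck: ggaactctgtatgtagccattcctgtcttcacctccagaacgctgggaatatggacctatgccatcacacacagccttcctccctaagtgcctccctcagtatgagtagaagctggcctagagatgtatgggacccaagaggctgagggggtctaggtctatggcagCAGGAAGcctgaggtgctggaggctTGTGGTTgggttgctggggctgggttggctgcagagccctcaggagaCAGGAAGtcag

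The Cd3d and Lcp2 stretches had 41.2% and 40.4% G and C and held no CG pair, against a median of 56.4% and 12 CG pairs over the 11988 promoters of protein-coding genes tested. Zap70 (58.4%, 5 CG pairs) and Lck (56.4%, 1 CG pair) were nearer to that median in base composition. Of the genes not printed, Cd247 had the same 41.2% as Cd3d, with 3 CG pairs, although it did not rise under every scaling. Cd3g had 51.6% and 4 CG pairs, Cd3e 57.6% and 7, Fyn 64.4% and 18, and Lat 64.8% and 8. None of the 8 motifs was found in the Cd3d or Zap70 stretch. Lcp2 held 1 NFAT match from 33 to 28 bases before the start, a motif present in 21.1% of all promoters. Lck held the ETS variant at 83 to 77 and at 11 to 5 bases before the start and the RUNX motif at 58 to 52 bases, with no overlap between them. Among all 9 genes, the ETS variant was found in 3 (Cd3e, Cd247 and Lck), against 9.58% of all promoters, and the RUNX motif in Lck, against 3.80%. The first ETS motif, AP-1, CRE and the TATA box were found in none of the 9 and in 10.5%, 4.47%, 2.06% and 7.57% of all promoters, and the SP1 motif was found in Cd3g, against 48.9%. A match is a run of letters and not a binding site.

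The comparison of LIP with CTL mice asks whether periodontitis left a mark on the pathway. On day 0 none of the 9 genes passed the test, at an adjusted or an unadjusted p of 0.05 (edgeR, 3 against 3 libraries), and DESeq2 called none either. Over all 14064 genes tested, 0.427% passed with adjustment, most of them lower in LIP mice, and 13.9% without. The log2 fold changes of the 9 genes ran from -0.10 (Fyn) to 0.08 (Lat). The largest difference in either direction that the 95% intervals allow was -0.28 (Cd3d and Fyn) and 0.23 (Lat). The median absolute log2 fold change was 0.08, against 0.14 over all genes tested. The groups overlapped for all 9 genes, whereas 19.1% of all genes had groups that did not overlap.

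On day 2 none of the 9 genes passed at an adjusted p of 0.05 with edgeR, and neither did any of the 14041 genes tested (0.00%). DESeq2 called 485 of all genes and none of the 9. At an unadjusted p of 0.05, 1 of 9 genes and 16.5% of all genes passed. That gene was Cd247, with a log2 fold change of 0.31 (SE 0.12, 95% interval 0.04 to 0.58, edgeR adjusted p = 0.255), and all 3 LIP libraries were above all 3 CTL libraries. Lck also had groups that did not overlap, with LIP higher by a log2 fold change of 0.12 (95% interval -0.13 to 0.37). Such separation was found in 21.5% of all genes. Cd3d had the next largest positive value, 0.29 (95% interval -0.14 to 0.72), and Cd3e (-0.22, 95% interval -0.50 to 0.06) and Zap70 (-0.18, 95% interval -0.48 to 0.12) the largest negative ones. Values of Cd3g, Fyn, Lat and Lcp2 lay between -0.12 and 0.00.

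These counts changed when LIP 90 was left out. Without it, 2014 of 14453 genes passed in LIP against CTL on day 2 (13.9%), and 1 of the 9, Cd3d, did so with a log2 fold change of 0.49 (edgeR adjusted p = 0.0283), on 2 LIP libraries. Without LIP 96 instead, the log2 fold change of Cd3d went from 0.29 to 0.14 (edgeR adjusted p = 0.850). These 2 libraries, LIP 96 and LIP 97, had 72.7 and 71.1 CPM of B cell markers against 23.2 CPM in LIP 90, and CTL 97 had 64.1 CPM. Their myeloid markers summed to 21.8 and 52.5 CPM, against 22.03 CPM in LIP 90. The part of these cells in the difference was not tested. The Cd3d level of LIP 90 (288.7 CPM) was close to that of CTL 93 (292.2 CPM). For the difference of the day effects between LIP and CTL mice, 0 of 9 genes passed and 0.0517% of all genes did (edgeR, 12 libraries). DESeq2 called 1 of the 9, Cd247, and 520 of all genes. Cd247 was the only one of the 9 at an unadjusted p of 0.05 in this comparison, and 15.9% of all genes were.

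The comparison of day 2 with day 0 was also made for lists of genes around the 9. Of 12 tested constant chains, coreceptors and accessory receptors, 7 rose and 2 fell in CTL mice, with the same counts in LIP mice, beside 35.3% and 36.6% of all genes that rose and 33.7% and 35.2% that fell. The medians of the list were 0.35 and 0.63 on the log2 scale. Cd5, an inhibitory coreceptor whose level is known to follow receptor signalling, went from 238.3 ± 7.12 to 937.7 ± 67.4 CPM in CTL mice (log2 fold change 1.98, edgeR adjusted p = 9.16e-09). Its relative Cd6 rose from 268.4 ± 14.1 to 761.4 ± 75.6 CPM (edgeR adjusted p = 2.66e-07), and the costimulatory receptor Cd28 from 416.4 ± 33.5 to 935.9 ± 41.7 CPM (1.17, edgeR adjusted p = 1.45e-07). In the other direction Trat1, a transmembrane adaptor that associates with the receptor complex, fell from 164.6 ± 5.21 to 8.68 ± 2.02 CPM in CTL mice (-4.24, edgeR adjusted p = 6.55e-07), and from 130.8 ± 3.92 to 20.5 ± 15.4 CPM in LIP mice (-2.67, edgeR adjusted p = 1.86e-05). Trdc, the constant region of the δ receptor chain, fell from 11.8 to 3.52 CPM in CTL mice (-1.73, edgeR adjusted p = 0.000221). Trbc1 and Trbc2 are near-identical, so their reads may have been split between them. The Cd4 coreceptor had log2 fold changes of -0.14 and -0.25 in CTL and LIP mice and did not pass.

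Most of the genes in the list of partners of LAT and SLP-76 fell, a list that also holds genes with other roles, such as Sh2d1a and Unc119. Of 17 tested, 13 fell and 2 rose in CTL mice, and 12 fell and 2 rose in LIP mice, against 33.7% and 35.2% of all genes that fell. The median log2 fold change of the list was -0.84 in CTL and -0.89 in LIP mice, against -0.02 and 0.00 over all genes. Txk, a Tec family kinase of resting T cells, fell from 254.0 ± 47.0 to 20.1 ± 2.17 CPM in CTL mice (-3.66, edgeR adjusted p = 2.12e-09). Themis, an adaptor known for its part in thymic selection, fell from 420.0 ± 27.4 to 64.5 ± 16.2 CPM (-2.70, edgeR adjusted p = 2.35e-06), and Sh2d1a, the adaptor SAP of the SLAM receptors, from 26.2 to 5.62 CPM (-2.21, edgeR adjusted p = 5.69e-06). Sh2d2a, a T cell specific adaptor that binds Lck, rose by 0.82 (edgeR adjusted p = 0.000464), and Unc119, known to activate Src family kinases, by 0.88 from a low level of 5.30 CPM (edgeR adjusted p = 0.00602). 

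Of 22 inhibitors of the proximal steps tested, 7 rose and 9 fell in CTL mice, and 8 rose and 11 fell in LIP mice, beside 35.3% and 36.6% of all genes that rose and 33.7% and 35.2% that fell. The medians of the list were 0.00 and -0.27 on the log2 scale. Sla, an adaptor that limits the amount of receptor, rose from 255.0 ± 39.6 to 823.6 ± 107 CPM in CTL mice (1.69, edgeR adjusted p = 5.63e-08). Cblb, a ubiquitin ligase that restrains T cell activation, rose from 475.0 ± 53.3 to 1407 ± 176 CPM (1.57, edgeR adjusted p = 1.84e-07), and the receptor phosphatase Ptprj from 18.5 to 50.2 CPM (1.45, edgeR adjusted p = 3.12e-05). Pag1, the membrane adaptor that brings the Lck inhibitor Csk to the membrane, fell from 263.4 ± 14.9 to 35.1 ± 3.36 CPM (-2.91, edgeR adjusted p = 1.11e-09). The adaptors Sit1 and Sla2 fell by 2.28 and 1.60 on the log2 scale (edgeR adjusted p = 1.16e-07 and 9.06e-08).

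In the calcium and NFAT arm, 4 of 14 rose and 7 fell in CTL mice, and 5 rose and 7 fell in LIP mice, with medians of -0.17 and -0.16. The shares of all genes were the same as those beside the inhibitors, and the share of the arm that rose was close to them. Orai1, the pore of the store-operated calcium channel, rose from 32.9 to 82.9 CPM in CTL mice (1.33, edgeR adjusted p = 1.15e-05), while its relative Orai2 fell from 192.6 ± 14.5 to 45.8 ± 3.43 CPM (-2.07, edgeR adjusted p = 4.12e-08). Nfatc1 and the calcineurin subunit Ppp3r1 rose by 0.51 and 0.46 (edgeR adjusted p = 0.000398 and 0.000610). The rise of Nfatc1 in LIP mice, 0.30, turned to -0.02 under upper-quartile scaling and -0.06 with library size alone. The calcineurin subunit Ppp3ca fell by 1.83 and the calcium release channel Itpr2 by 1.68 on the log2 scale (edgeR adjusted p = 8.44e-08 and 6.15e-09). Of the counterparts from B and myeloid cells, 3 of 8 could be tested. Fgr passed the filter on low counts through its day 0 values (0.877 CPM in CTL mice, against 0.300 CPM on day 2, which is within the range of 3 counts), so no change is read from it.

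**Figure D5:**
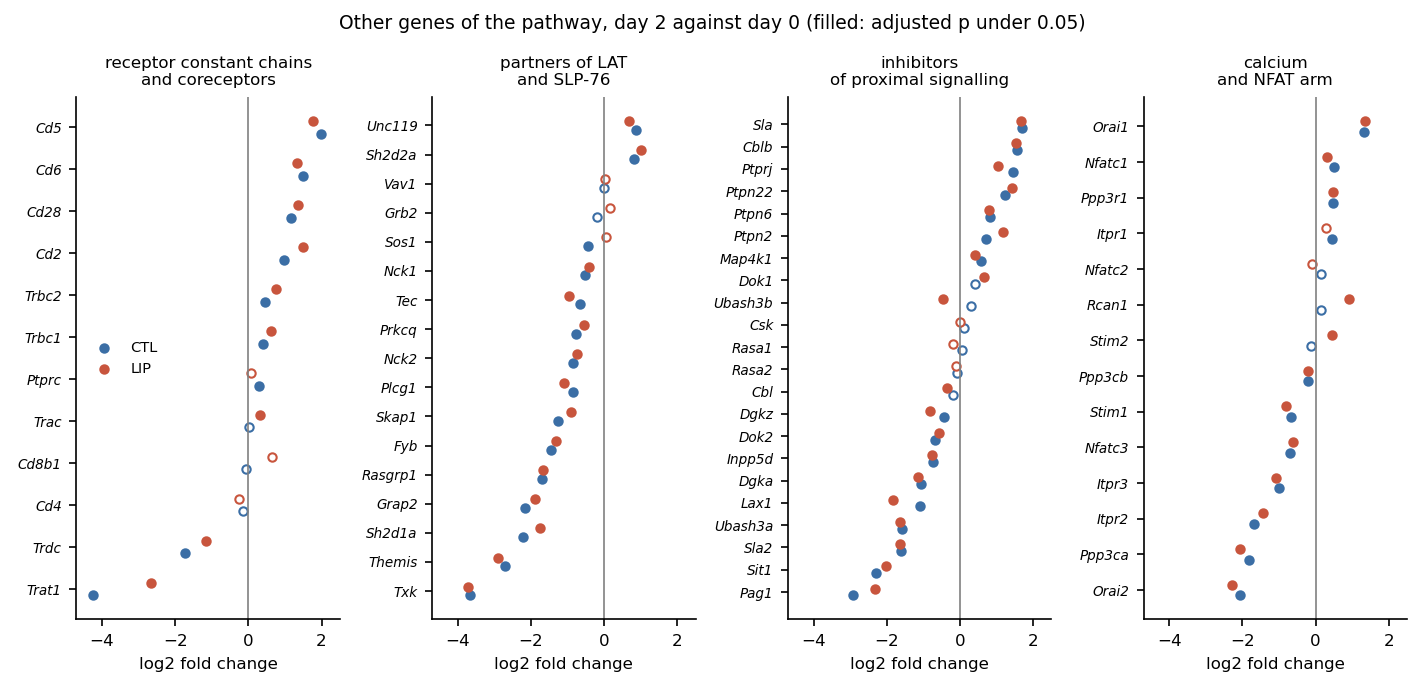
Log2 fold change of day 2 against day 0 (x axis) in CTL (blue) and LIP mice (red) for the tested genes of 4 lists around the 9; filled points passed an adjusted p of 0.05. Txk, Themis and Pag1 lie below -2 and Cd5 and Sla above 1 in both groups, and the partners of LAT and SLP-76 lie mostly below 0.

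Between LIP and CTL mice, none of the genes of these lists passed on either day or in the difference of the day effects (edgeR). On day 0, 3 of 17 partners, 5 of 22 inhibitors and 2 of 12 constant chains and coreceptors had an unadjusted p under 0.05, all lower in LIP mice. In the calcium arm 1 of 14 did so as higher and 3 as lower, beside 13.9% of all genes on day 0. Trat1 came nearest to the threshold there (log2 fold change -0.33, edgeR adjusted p = 0.0645). At an unadjusted p of 0.05 on day 2, 1 of 17 partners (Sos1), 7 of 22 inhibitors, 4 of 14 genes of the calcium arm and 2 of 12 constant chains and coreceptors passed, beside 16.5% of all genes. Without LIP 90 of day 2, 3 of 17 partners, 4 of 22 inhibitors, 2 of 14 genes of the calcium arm and 2 of 13 constant chains and coreceptors passed with adjustment, beside 13.9% of all genes. So did 1 of 3 tested counterparts from B and myeloid cells, Syk (log2 fold change 1.89, edgeR adjusted p = 0.0448). The partners were Skap1 (log2 fold change 0.61), Sos1 (0.54) and Themis (-0.92), and the inhibitors were Dok1 (0.79), Pag1 (0.54), Ptpn2 (0.54) and Ubash3b (-0.72). In the calcium arm Stim2 (0.60) and Nfatc2 (-0.51) passed, and among the receptors and constant chains Trat1 (1.65) and Cd8b1 (1.04). These genes are named after their values were seen. In the difference of the day effects without LIP 90, 3 of 17 partners, 3 of 22 inhibitors, 2 of 14 genes of the calcium arm and 2 of 13 constant chains and coreceptors passed, beside 10.1% of all genes. Both sets of calls rest on LIP 96 and LIP 97 alone for LIP mice of day 2, the libraries with more B cell markers than LIP 90 given above, whose part was not tested.

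The genes most like each of the 9 over the 12 libraries, by the root mean square difference of log2 CPM after centring each gene on its mean, were sought among 9453 genes with a mean of at least 10 CPM. For Cd3d they were Rpl13a and Rpl13, which encode ribosomal proteins of the large subunit, at 0.101 and 0.102. Rpl13a had mean levels of 892.9, 778.5, 1545 and 1963 CPM in CTL day 0, LIP day 0, CTL day 2 and LIP day 2. For Lcp2 they were Zwint, a kinetochore protein, and Ube2l3, a ubiquitin-conjugating enzyme (0.0781 and 0.0804), and for Zap70 Stx6 and Tfdp2 (0.103 and 0.107). The genes nearest to Cd3e were Tsc22d4 and Myo9b, to Cd3g Midn, to Cd247 Fadd and Cir1, to Lck Kat7 and Dctn5, to Fyn Msn and Gtpbp1 and to Lat Nom1 and Wdr70, at 0.0590 to 0.0773. None of these pairs joined members with each other. The nearest other member had rank 41 at best, Lck for Cd247 (0.117), and rank 581 at worst, Lck for Cd3g.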

How the data were processed

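The authors trimmed reads with Trimmomatic (version 0.38 in the submitters' processing notes) after FastQC 0.11.9, used HISAT2 for alignment to GRCm39, and deposited for each gene the expected counts of RSEM 1.3.0 with Bowtie2. The annotation release, the strand setting and any filter before deposit are not given in the sources used here. The authors' own comparisons (fold changes and p-values of LIP against CTL on each day) were not used, and their tables served only for gene symbols. In the day 2 table, 2 columns belong to libraries that the labels do not list, and they were not used.

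Libraries were assigned to groups by their titles. Expected counts were rounded (73267 values were not whole). The main test was edgeR 4.0.16's quasi-likelihood test in R 4.3.3 after TMM scaling of the genes kept by filterByExpr, with Benjamini-Hochberg adjustment over all genes tested and a threshold of 0.05. LIP was compared with CTL on the 6 libraries of each day, and day 2 with day 0, with its difference between groups, on all 12 libraries. Levels are TMM-normalized CPM over 12 libraries. Intervals are 95% intervals of the fit, and a count of 3 corresponds to 0.269 to 0.452 CPM. Alternatives were RLE, upper-quartile scaling, library size alone, DESeq2 1.42.0, no filter, at least 10 counts in every library, another set of libraries in the fit and leaving out each library. The code was tested on simulated data. Nothing states whether a library pooled mice, so p-values measure the spread between these libraries.

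The 9 genes, the lists around them and the tests were chosen with earlier results of these data known. From each list around the 9, the text names up to 3 genes that passed as higher and 3 as lower with the largest change of day 2 against day 0 in CTL mice, and any gene that passed between LIP and CTL. For likeness, the 2 nearest genes are named, after adding 0.5 CPM. Others are named after their values were seen. Some genes of the lists, and 1 of the nearest genes, are not reported here, and the counts leave them out. Of the 18 remaining names in the list of partners of LAT and SLP-76, 17 genes were found, since Fyb stands there under 2 names. Positions, exon lengths and starts came from GENCODE M39. Figures were drawn with matplotlib 3.10.9 in Python 3.11.15.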

Additional observations from a re-analysis of the deposited data

How the results depend on the processing

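Cd3d, Zap70 and Lcp2 kept their direction and call in both day comparisons under every alternative run. Of the 9 genes, 3 were called lower in CTL mice and 3 in LIP mice under upper-quartile scaling and under library size alone (0 with TMM), and the number called higher in LIP mice went from 5 to 3 under both. In LIP mice the log2 fold change of day 2 against day 0 turned from 0.05 to -0.27 and -0.31 for Cd3e, from 0.02 to -0.31 and -0.35 for Lat, from 0.18 to -0.14 and -0.18 for Lck, and from 0.30 to -0.017 and -0.057 for Nfatc1 under upper-quartile scaling and library size alone. In CTL mice it turned from 0.19 to -0.095 for Cd3e and from 0.20 to -0.085 for Lat under upper-quartile scaling. For Cd3g in LIP mice it turned from 0.35 to -0.0059 and for Cd247 from 0.34 to -0.021 with library size alone. These scalings move the median of all genes, as given above. In the difference of the day effects, 1 of the 9 was called with DESeq2.

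The number of all genes called in LIP against CTL on day 0 was 60, and became 202 with DESeq2, 645 without a filter and 12 in the fit of 12 libraries. On day 2 it was 0, and became 1 with library size alone or with at least 10 counts in every library, 485 with DESeq2, 662 without a filter and 775 in the fit of 12 libraries. For the difference of the day effects it was 8, and became 97 with library size alone, 520 with DESeq2 and 815 without a filter. The cause was not tested. In the fits that each omit 1 library, these 3 counts ran from 13 to 658 (the highest without CTL 94 of day 0), from 0 to 2014 and from 1 to 1596 (both highest without LIP 90 of day 2). The number of the 9 genes called ran from 0 to 1 in LIP against CTL on day 2 and from 0 to 1 in the difference of the day effects, with 1 only when LIP 90 was left out. No paired analysis was possible because the groups compared share at most 1 library number, and the labels do not tie numbers to a shared animal or day. With 3 libraries a group, the intervals around LIP against CTL on day 2 leave room for differences of up to 0.72 (Cd3d) on the log2 scale.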
